A study of Mus musculus with 6 samples.

Results

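Genes for the uptake, storage and export of iron were followed in livers of C57BL/6 mice after knockdown of Atoh8 and in control livers. They are Tfrc, Tfr2, Trf, Slc11a2, Slc39a14, Fth1, Ftl1, Slc40a1, Cp and Hfe, taken by symbol for their part in iron handling, with earlier results of these data known. All 10 were found among the 47729 genes of the count files, and all 10 were among the 13767 genes that passed the filter on low counts. The 6 samples were 3 with a short hairpin RNA against Atoh8 (shAtoh8), a gene for a helix-loop-helix transcription factor, and 3 with a control hairpin (shNC). Every mouse of both groups had eaten 0.1% DDC for 17 days, a diet that blocks heme synthesis and leads to porphyrin deposits, so no group without DDC is part of the comparison. The sample titles call the controls WT. The sources used here do not give the delivery of the hairpin, its promoter or the age of the mice. The labels name both liver and hepatocyte, and RNA came from removed, frozen livers, so other liver cells contributed to it. They do not say whether replicates were separate animals, and a p-value here covers no more than the spread among these libraries, part of which may be technical.

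Iron circulates bound to transferrin (Trf), which hepatocytes secrete. Most cells take it up through transferrin receptor 1 (Tfrc), keep the surplus in the ferritin shell built from heavy (Fth1) and light (Ftl1) chains, and release it through the exporter ferroportin (Slc40a1). Hepatocytes also act as the body's iron sensor: transferrin receptor 2 (Tfr2) and Hfe feed into the production of hepcidin (Hamp), a hormone that removes ferroportin from the cell surface. When a cell is short of iron, iron regulatory proteins bind hairpins called iron-responsive elements. Binding in the 5′ untranslated region blocks translation of ferritin and ferroportin mRNA, and binding in the 3′ untranslated region protects Tfrc mRNA from decay.

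The hairpin letters are shown because their place differs among the genes with a match. They lie in the 3′ UTR of Tfrc, whose abundance iron is known to act on. In the others they lie in the 5′ UTR, where iron is known to act on translation. The motif searched was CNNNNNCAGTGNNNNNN on the transcript strand, with the 5 bases on either side of the loop able to pair (G with T allowed). Of the 10 genes, 4 held it in an annotated GENCODE M21 transcript (GRCm38). Each line gives 30 bases, 5′ to 3′, with the 6-base loop in capitals.
Tfrc 3′ UTR, chr16:32631219-32631248, plus strand: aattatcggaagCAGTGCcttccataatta
Tfrc 3′ UTR, chr16:32631598-32631627, plus strand: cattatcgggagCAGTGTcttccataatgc
Tfrc 3′ UTR, chr16:32631663-32631692, plus strand: ctatatcggagaCAGTGAtctccatatgtt
Tfrc 3′ UTR, chr16:32631710-32631739, plus strand: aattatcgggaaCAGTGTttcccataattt
Slc40a1 5′ UTR, chr1:45925464-45925493, minus strand: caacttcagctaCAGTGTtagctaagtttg
Fth1 5′ UTR, chr19:9982732-9982761, plus strand: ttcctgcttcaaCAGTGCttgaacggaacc
Ftl1 5′ UTR, chr7:45459778-45459807, minus strand: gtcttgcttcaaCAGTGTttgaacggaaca
Among all coding genes, 0.134% of 20831 held the motif in a 5′ UTR and 0.607% of 20914 in a 3′ UTR. The other 6 genes had no match in the UTRs searched, which says only that these letters are not there. A hairpin with another loop or with unpaired stem bases would be missed, also in Slc11a2, where 2 transcripts were searched. The search therefore does not tell which of the 6 respond to iron.

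Reads in genes ranged from 36915731 to 37969644 in the shAtoh8 libraries and from 31912058 to 36970491 in the shNC libraries. Atoh8 itself was lower in every shAtoh8 library than in any shNC library, at 10.2, 9.83 and 5.64 CPM (reads scaled to library size) against 63.8, 16.8 and 16.4 CPM (edgeR adjusted p = 0.197, or 0.0115 without shNC replicate 1). One control library stood apart. The Pearson correlation of log2 CPM between shNC replicate 1 and the other shNC libraries was 0.916 and 0.907, against 0.984 between those and 0.98 to 0.985 within shAtoh8. Tests are therefore given with and without this library.

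With all 6 libraries, 0 of the 10 iron genes passed in edgeR (quasi-likelihood test, Benjamini-Hochberg adjusted p under 0.05), where 0.864% of all tested genes passed. Ftl1 alone had an unadjusted p under 0.05, as did 14.5% of all tested genes. DESeq2 also called 0 of the 10, and 6.78% of all tested genes. Without shNC replicate 1 the edgeR test called 2 of the 10, Tfrc as lower and Trf as higher in shAtoh8, where 32.6% of all tested genes passed. The Trf call rests on counts that held only a small part of its reads, and a fit on length-scaled values did not make it, as given below. The median log2 fold change of the 10 was -0.22 with all libraries and 0.02 without shNC replicate 1, beside -0.05 and 0.01 over all genes tested. In bulk liver RNA, fewer cells of a type and less RNA per cell cannot be told apart.

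**Figure D1:**
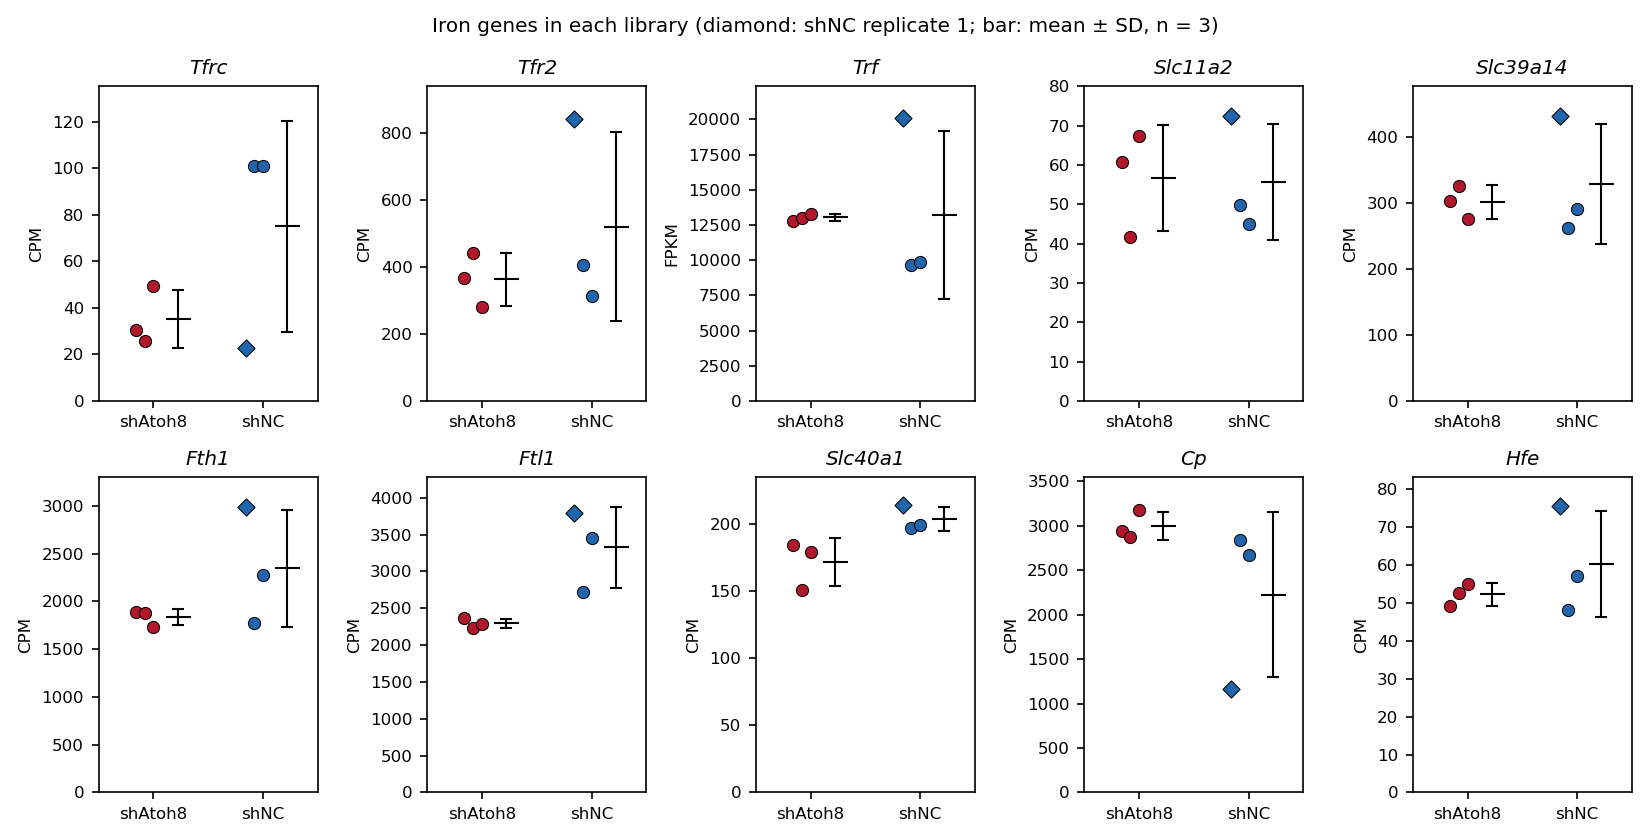
Level of each iron gene in each library, in CPM (FPKM for Trf), with shAtoh8 left and shNC right; points are libraries, the diamond is shNC replicate 1, and bars give mean ± SD (n = 3). The diamond lies at an end of the shNC libraries in every panel, and the shAtoh8 points of Ftl1 and Slc40a1 lie below all shNC points.

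Per transcript length, as FPKM (fragments scaled to transcript length and library size), transferrin was the most abundant of the 10, with 12803 to 13256 FPKM in shAtoh8 and 9659 to 20073 FPKM in shNC. Ftl1, Fth1 and Cp followed in that order, and the ranges of these neighbours did not overlap in either group. Tfr2, Slc39a14, Slc40a1 and Hfe came next, and the ranges of Tfr2 and Slc39a14 overlapped in both groups. Tfrc, with 7.34 to 12.5 FPKM, was below Slc11a2, with 13.6 to 19.8 FPKM, in shAtoh8. In shNC their ranges overlapped, with Tfrc at 6.31, 28.3 and 30.8 FPKM and Slc11a2 at 23.1, 16.1 and 20.2 FPKM.

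Among the uptake genes, Tfrc (ENSMUSG00000022797, chr16:32608920-32632794, plus strand), the receptor that brings transferrin into the cell, had 30.5, 25.6 and 49.3 CPM in shAtoh8 libraries 1 to 3, against 22.6, 101 and 101 CPM in shNC libraries 1 to 3. The 3 shAtoh8 libraries were all below shNC 2 and 3 and all above shNC 1, so the groups overlapped through that library. The means were 35.1 ± 12.5 CPM in shAtoh8 and 75.0 ± 45.4 CPM in shNC (SD, n = 3 each), a log2 fold change of -1.09 (SE 0.55, edgeR adjusted p = 0.421). Without shNC replicate 1, Tfrc fell by 1.51 on the log2 scale in edgeR (SE 0.24, adjusted p = 0.00142). With all 6 libraries, limma-voom with a quality weight per library called Tfrc as lower, at a log2 fold change of -1.58 (adjusted p = 0.00159). This setting called 37.0% of all genes. Its values were near those of edgeR without shNC replicate 1 for Tfr2 (-0.05 and 0.03) and Trf (0.47 and 0.50) too. The weights of the libraries were not examined here, so this setting is not taken as a check apart from leaving that library out. Erythroid precursors also carry this receptor. The erythroid marker list summed to 19.0 to 22.8 CPM in shAtoh8 and 17.2 to 32.4 CPM in shNC. Alas2 made up most of it, Klf1 had 49 to 65 reads in shAtoh8 and 20 to 125 reads in shNC, and the other 9 of the 11 matched markers had at most 5 reads in any library, with Slc4a1 and Rhag at 0. Reads that like globin genes share, such as Hbb-bs and Hbb-bt, are uncertain in either count. The low globin counts therefore do not by themselves show that erythroid cells were absent. Markers other than globin genes were low too, with Epb42 and Gata1 at 0 or 1 reads in every library. The part of erythroid cells in the Tfrc values was not tested.

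Tfr2 (ENSMUSG00000029716, chr5:137569840-137587481, plus strand), the receptor through which hepatocytes sense loaded transferrin, had 366, 442 and 281 CPM in shAtoh8, against 841, 405 and 313 CPM in shNC. The groups overlapped, and shNC replicate 1 was higher than every other library. Its log2 fold change of -0.52 (SE 0.39, edgeR adjusted p = 0.606) became 0.03 without that library (adjusted p = 0.932).

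Trf (ENSMUSG00000032554, chr9:103204001-103230444, minus strand), the plasma carrier, had 12803, 13021 and 13256 FPKM in shAtoh8, against 20073, 9659 and 9863 FPKM in shNC. All 3 shAtoh8 libraries lay between shNC 1 and the other shNC libraries. The limma fit on log2(FPKM + 0.1) gave a log2 fold change of 0.07 with all libraries (adjusted p = 0.958). Without shNC replicate 1 it gave 0.42 (adjusted p = 0.181), while edgeR on the counts called Trf as higher, by 0.50 on the log2 scale (SE 0.14, adjusted p = 0.0187).

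FPKM is used for Trf because its deposited counts held only a small part of its reads. Its unscaled CPM (reads over all gene reads) divided by its FPKM corresponds to 0.0262 kb of transcript, against a longest annotated transcript of 2.57 kb. The same quotient was 0.637 to 3.5 kb for the other 9 genes and under 0.1 kb for 0.347% of the 13252 genes with values. A gene model on the same strand, Gm20425 (chr9:103190208-103230307), spans nearly all of Trf and had 0 counted reads in every library. It stood at 9.97 to 11.1 FPKM in shAtoh8 and 6.66 to 9.61 FPKM in shNC, and counting that sets aside reads of overlapping genes as ambiguous leaves both genes short. Ambiguous reads made up 5.79% to 6.17% of each shAtoh8 library and 4.69% to 6.87% of each shNC library.

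Slc11a2 (ENSMUSG00000023030, chr15:100387898-100425072, minus strand), the divalent metal transporter that moves iron out of endosomes, had 60.9, 41.6 and 67.5 CPM in shAtoh8, against 72.6, 49.8 and 45.0 CPM in shNC. Slc39a14 (ENSMUSG00000022094, chr14:70303469-70351425, minus strand), which takes iron not bound to transferrin into hepatocytes, had 303, 326 and 275 CPM in shAtoh8, against 432, 262 and 291 CPM in shNC. The groups overlapped for both, and shNC replicate 1 was the highest library for both. The log2 fold change was 0.02 for Slc11a2 (SE 0.27, edgeR adjusted p = 0.979) and -0.13 for Slc39a14 (SE 0.23, adjusted p = 0.849). Slc11a2 shares its locus with an antisense gene model, and the sources used here do not say if counting used the strand. Gene counts also do not separate its isoforms.

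For storage, Ftl1 (ENSMUSG00000050708, chr7:45457944-45459884, minus strand), the ferritin light chain, had 2363, 2235 and 2287 CPM in shAtoh8, against 3797, 2720 and 3458 CPM in shNC. Each shAtoh8 library was below each shNC library. The means were 2295 ± 64.2 CPM in shAtoh8 and 3325 ± 550.5 CPM in shNC (SD, n = 3 each), and the log2 fold change was -0.54 (SE 0.21, edgeR adjusted p = 0.313). It was -0.41 without shNC replicate 1 (adjusted p = 0.0897), so Ftl1 did not pass in either fit. Over all libraries, 3 of the 10 genes had groups that did not overlap in CPM (Ftl1 and Slc40a1 lower, Cp higher in shAtoh8), as did 23.1% of all tested genes. In FPKM they were 2 of the 10, Ftl1 and Slc40a1, against 22.2% of all genes. In CPM without shNC replicate 1 they were 5 (Tfrc, Ftl1 and Slc40a1 lower, Trf and Cp higher), against 59.2% of all genes.

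Fth1 (ENSMUSG00000024661, chr19:9980598-9985098, plus strand), the ferritin heavy chain that oxidises iron as it enters the shell, had 1890, 1878 and 1736 CPM in shAtoh8, against 2989, 1769 and 2280 CPM in shNC. The shAtoh8 libraries lay close together, and shNC replicate 2 fell among them while the other shNC libraries were higher. The log2 fold change was -0.35 (SE 0.24, edgeR adjusted p = 0.574), and -0.13 without shNC replicate 1 (adjusted p = 0.603). Ferritin genes have processed copies elsewhere in the genome. The copy Ftl1-ps1 had 317 to 359 reads in shAtoh8 and 366 to 480 reads in shNC, and reads shared with Ftl1 may be split between them.

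For export, Slc40a1 (ENSMUSG00000025993, chr1:45908068-45926523, minus strand), which encodes ferroportin, had 184, 151 and 179 CPM in shAtoh8, against 214, 197 and 199 CPM in shNC. The shAtoh8 libraries were all lower, and shNC replicate 1 was close to the other controls here. The log2 fold change was -0.25 (SE 0.17, edgeR adjusted p = 0.579) and -0.19 without that library (adjusted p = 0.331). Ferroportin is also abundant in Kupffer cells, the resident liver macrophages, and the sum of their 10 markers was 487, 474 and 545 CPM in shAtoh8, against 523, 322 and 296 CPM in shNC. All 10 of these markers were detected, and their part in the Slc40a1 values was not tested.

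Cp (ENSMUSG00000003617, chr3:19957054-20009145, plus strand), which encodes ceruloplasmin, the secreted ferroxidase that helps load iron onto transferrin, had 2938, 2875 and 3181 CPM in shAtoh8, against 1161, 2842 and 2677 CPM in shNC. The shAtoh8 libraries were all higher in CPM, but by little against shNC 2 and 3, and in FPKM the groups overlapped. The log2 fold change was 0.43 (SE 0.35, edgeR adjusted p = 0.631), and 0.14 without shNC replicate 1 (adjusted p = 0.565). Hfe (ENSMUSG00000006611, chr13:23702034-23710854, minus strand), the partner of the transferrin receptors that is lost in human hereditary hemochromatosis, had 49.1, 52.7 and 55.1 CPM in shAtoh8, against 75.5, 48.1 and 57.1 CPM in shNC. Its groups overlapped, with a log2 fold change of -0.20 (SE 0.21, edgeR adjusted p = 0.716) that was 0.01 without shNC replicate 1.

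**Figure D2:**
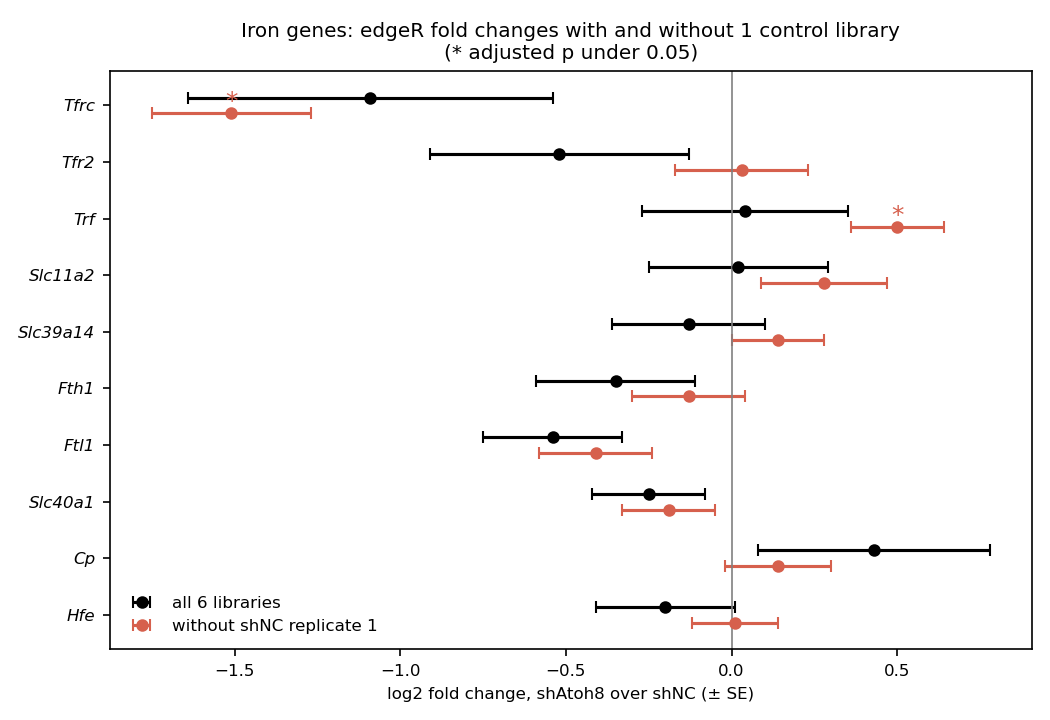
Log2 fold change of shAtoh8 over shNC (x axis, ± SE) for each iron gene from edgeR, with all 6 libraries (black) and without shNC replicate 1 (red); stars mark an adjusted p under 0.05. Tfrc was at -1.09 and -1.51, and Trf at 0.04 and 0.50, with stars only in the fit without that library. The counts behind the Trf points held only a small part of its reads.

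The distance of shNC replicate 1 from the other controls followed the GC content of transcripts. Over 13729 genes, the Spearman correlation of its log2 difference from the mean of shNC 2 and 3 with GC content was 0.64, and the same correlation for the mean of shAtoh8 was 0.36. These genes share libraries and are not independent. Tfrc, whose longest transcript has 39.8% GC, differed by -2.16 on the log2 scale in shNC 1 from the mean of shNC 2 and 3, and the median of the 715 genes within 1 percentage point of its GC content was -1.84. In shAtoh8 its difference from shNC 2 and 3 was -1.58, where those genes had a median of -0.57.

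The other genes lay at various distances from genes of like GC content. Cp (41.7% GC) differed by -1.25 in shNC 1, where its GC neighbours had a median of -1.45. Slc40a1 (42.0% GC) differed by 0.11, where its neighbours had a median of -1.38. Ftl1 (58.1% GC) was at -0.42 in shAtoh8 relative to shNC 2 and 3, and its neighbours at 0.25. With an offset for GC content and transcript length in edgeR and without shNC replicate 1, Tfrc fell by 1.05 on the log2 scale (SE 0.19, adjusted p = 0.00402) and Cp rose by 0.51 (SE 0.15, adjusted p = 0.0293), where 30.0% of all genes passed. In that fit Trf was at 0.28 (adjusted p = 0.104). On log2(FPKM + 0.1) without that library, limma called Tfrc alone among the 10, at -1.67 (SE 0.22, adjusted p = 0.00373), and 31.2% of all genes. With the offset and all 6 libraries, Tfrc was at -0.94 (adjusted p = 0.056) and 0 of the 10 passed, against 4.21% of all genes.

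**Figure D3:**
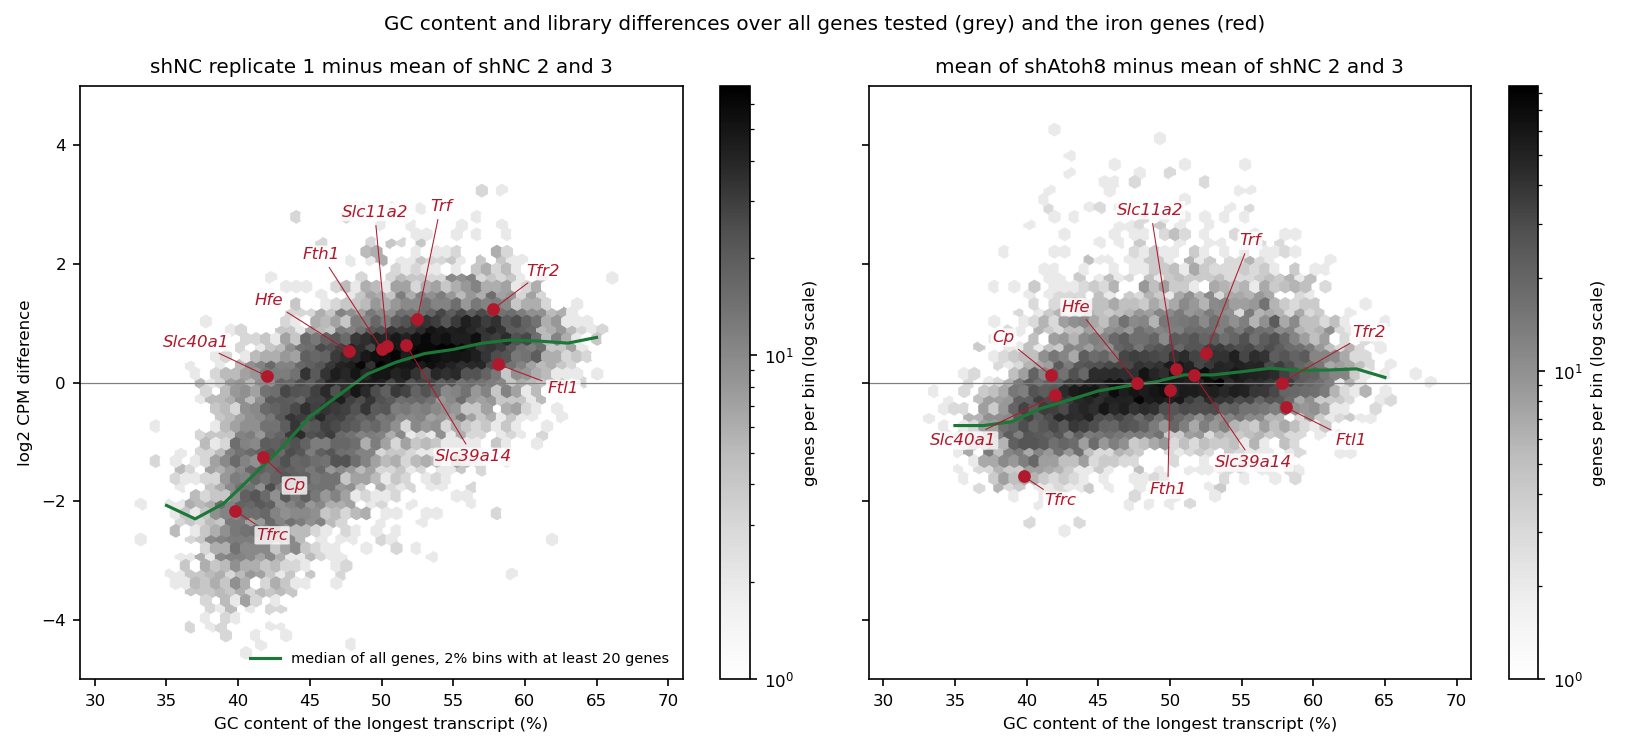
Log2 CPM difference (y axis) against GC content of the longest transcript (x axis) for all genes tested (grey, darker where more genes fall; a few genes beyond the axes are not drawn) and the 10 iron genes (red), for shNC replicate 1 (left) and the shAtoh8 mean (right), each minus the mean of shNC 2 and 3. The green median line climbs with GC content over most of the range in both panels, and Tfrc is at -0.32 from the median of its GC neighbours at left and at -1.02 at right.

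Ratios within a library do not depend on its scaling, but they can carry the trend with GC content given above. The GC neighbours of Tfrc, Fth1 and Tfr2 had median log2 differences of -0.57, 0.06 and 0.25 in shAtoh8 from shNC 2 and 3. Those of Ftl1 were at 0.25, so for Fth1 to Ftl1 below the neighbours go against the sign of the ratio difference. The part of this trend in the ratio differences was not tested. The log2 ratio of Tfrc to Fth1 counts, uptake against storage, was -5.95, -6.20 and -5.14 in shAtoh8, against -7.05, -4.13 and -4.49 in shNC. The shAtoh8 libraries lay between shNC 1 and the other controls. The means differed by -0.54 (exact two-sided permutation p = 0.7, where 3 against 3 allows no p under 0.1), and by -1.45 without shNC replicate 1. The log2 ratio of Tfrc to Tfr2 was -3.58, -4.11 and -2.51 in shAtoh8, against -5.22, -2.0 and -1.63 in shNC, with the same arrangement of libraries. That difference was -0.45 (exact permutation p = 0.8), and -1.59 without shNC replicate 1.

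The log2 ratio of heavy to light ferritin counts, Fth1 to Ftl1, varied least. It was -0.32, -0.25 and -0.40 in shAtoh8, against -0.35, -0.62 and -0.60 in shNC. Here shNC replicate 1 fell among the shAtoh8 libraries and the other controls were lower. The difference was 0.20 (exact permutation p = 0.2), and 0.29 without that library. Over the 3 ratios tested, the Benjamini-Hochberg adjusted permutation p was 0.8 for Tfrc to Fth1, 0.8 for Tfrc to Tfr2 and 0.6 for Fth1 to Ftl1.

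The wider iron pathway was read from a list of 40 further genes, of which 38 were matched by symbol and 34 were tested. With all 6 libraries 0 of 34 passed edgeR, beside 0.864% of all genes, and 12 had an unadjusted p under 0.05, beside 14.5% of all genes. DESeq2 called 6 of them, where it called 6.78% of all genes. Without shNC replicate 1 edgeR called 19 of 34, 11 higher and 8 lower in shAtoh8, where 16.5% of all genes passed as higher and 16.1% as lower. Groups did not overlap for 13 of the 34, against 23.1% of all genes. Values follow for the 8 with the smallest p over all libraries.

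Of these, 3 were higher in every shAtoh8 library. Steap4, a reductase of ferric iron, had 320, 291 and 301 CPM in shAtoh8, against 124, 175 and 145 CPM in shNC. Its log2 fold change was 1.04 (SE 0.19, edgeR adjusted p = 0.0663), and without shNC replicate 1 it rose by 0.94 (adjusted p = 0.0016). Heph, a membrane ferroxidase best known from the intestine, was scarce, at 0.679, 1.15 and 1.07 CPM in shAtoh8 and 0.298, 0.373 and 0.292 CPM in shNC (log2 fold change 1.58, edgeR adjusted p = 0.16). Steap1, of the same family as Steap4, was scarcer still, with 26, 17 and 28 reads in shAtoh8 against 4, 1 and 1 reads in shNC (log2 fold change 3.12, SE 0.68, edgeR adjusted p = 0.096). Steap1 and Heph passed without shNC replicate 1, with adjusted p of 0.00448 and 0.0429.

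The other 5 were lower in every shAtoh8 library. Hamp, which encodes hepcidin, had 723, 1045 and 561 CPM in shAtoh8, against 2033, 1090 and 1501 CPM in shNC, with the highest shAtoh8 library just under the lowest shNC library. Its log2 fold change was -0.99 (SE 0.32, edgeR adjusted p = 0.226), and without shNC replicate 1 it fell by 0.73 (adjusted p = 0.0453). That call was lost without this library when edgeR had the GC and length offset (-0.53, adjusted p = 0.0824) and when limma used log2(FPKM + 0.1) (-0.73, adjusted p = 0.11). Its paralog Hamp2 had 7.30, 16.7 and 6.13 CPM in shAtoh8, against 57.3, 30.5 and 42.7 CPM in shNC, at a log2 fold change of -2.11 (SE 0.44, edgeR adjusted p = 0.0845). Any reads that these paralogs share are uncertain in either count. Hamp2 also passed without shNC replicate 1, at -1.86 (adjusted p = 0.00346).

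Ncoa4, the cargo receptor that delivers ferritin to lysosomes, had 92.3, 109 and 94.9 CPM in shAtoh8, against 122, 183 and 204 CPM in shNC. Its log2 fold change was -0.78 (SE 0.23, edgeR adjusted p = 0.194), and without shNC replicate 1 it fell by 0.96 (adjusted p = 0.000904). Slc25a37, mitoferrin, which carries iron into mitochondria, had 59.5, 42.3 and 53.1 CPM in shAtoh8, against 77.6, 89.9 and 77.0 CPM in shNC (log2 fold change -0.66, edgeR adjusted p = 0.195). Cd163, the macrophage receptor for haemoglobin, had 7.05, 12.4 and 10.9 CPM in shAtoh8, against 15.6, 34.1 and 36.9 CPM in shNC (log2 fold change -1.51, edgeR adjusted p = 0.14). Slc25a37 and Cd163 passed without shNC replicate 1, with adjusted p of 0.0102 and 0.000368.

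**Figure D4:**
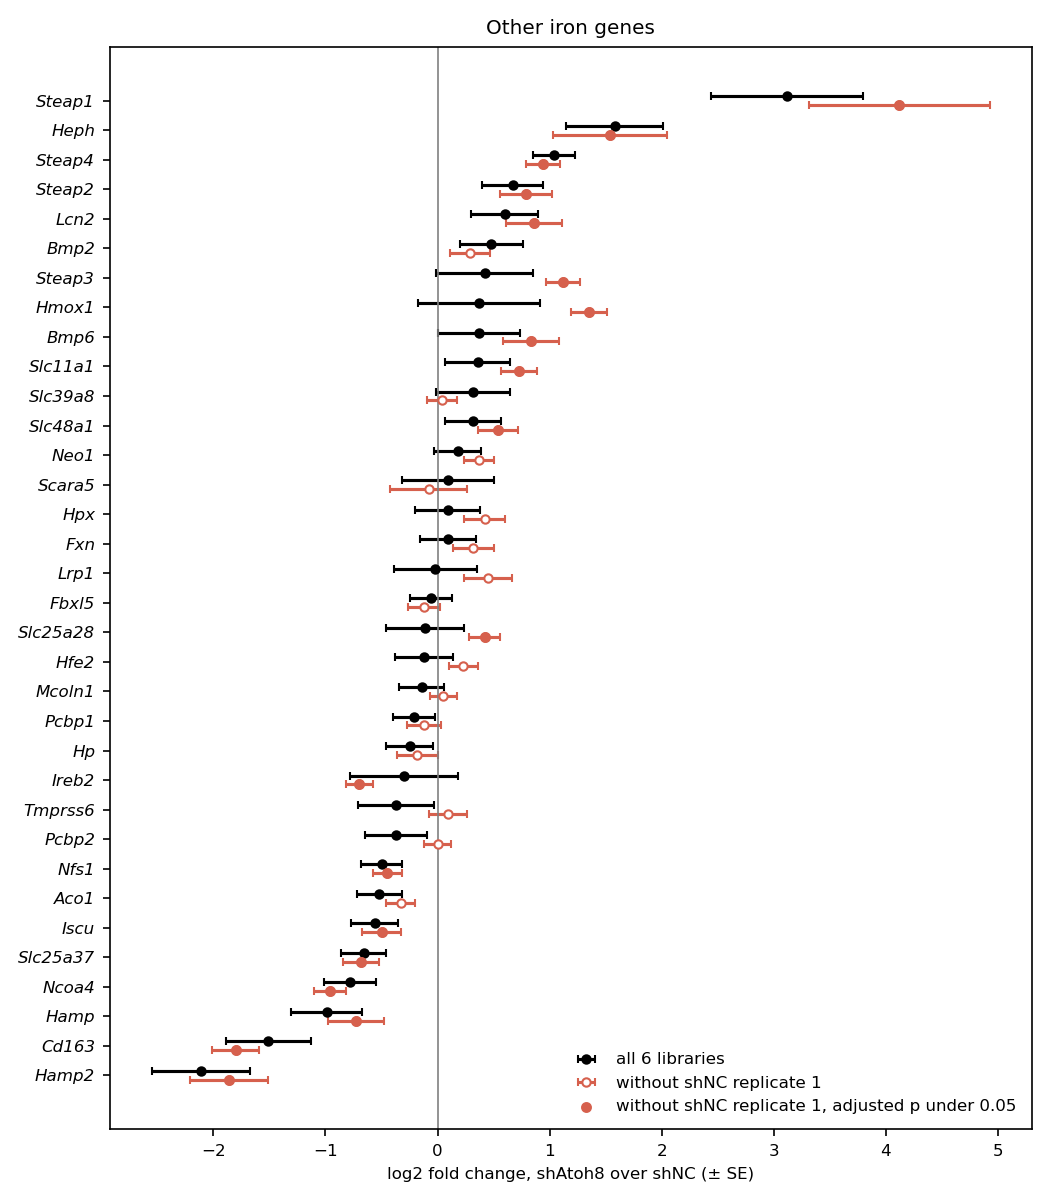
Log2 fold change of shAtoh8 over shNC (x axis, ± SE) from edgeR for the 34 other iron genes tested, with all 6 libraries (black) and without shNC replicate 1 (red, filled where the adjusted p is under 0.05). None passes in black, and 19 are filled in red.

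Cell marker levels in the same libraries were as follows. The 10 hepatocyte markers were all detected and summed, mostly from Alb, to 126150, 130524 and 113358 CPM in shAtoh8, against 161668, 143237 and 124141 CPM in shNC. With all 6 libraries 0 of them passed edgeR, beside 0.864% of all genes. Without shNC replicate 1, 3 passed as lower, beside 16.1% of all genes. The 8 markers of recruited macrophages (monocyte-derived or lipid-associated) summed to 264, 178 and 238 CPM in shAtoh8, against 247, 86.6 and 81.4 CPM in shNC, with shNC replicate 1 at the level of shAtoh8. Of these 8 and of the 10 Kupffer cell markers, 0 passed with all 6 libraries, beside 0.864% of all genes. Without shNC replicate 1, 7 of each list passed as higher, beside 16.5% of all genes. Cd163, the macrophage receptor given above and in neither list, went the other way in that fit, at -1.8 (edgeR adjusted p = 0.000368). The 10 cell cycle genes summed to 123, 81.7 and 135 CPM in shAtoh8, against 3.41, 4.53 and 13.0 CPM in shNC, and 7 of them passed edgeR as higher, beside 0.741% of all genes. Without shNC replicate 1 all 10 did, beside 16.5% of all genes. The 8 stellate cell and fibroblast markers summed to 313 to 442 CPM in shAtoh8 and 195 to 214 CPM in shNC. Of them 1 passed as higher, beside 0.741% of all genes, and 5 without shNC replicate 1, beside 16.5%. The cholangiocyte list, mostly Spp1, summed to 364 to 592 CPM in shAtoh8 and 59.8 to 65.8 CPM in shNC. Only 5 of its 8 genes were tested with all 6 libraries, and 2 were called higher in edgeR, beside 0.741% of all genes. Without shNC replicate 1, 3 were called higher, beside 16.5% of all genes. Endothelial markers overlapped, at 163 to 230 CPM in shAtoh8 and 181 to 205 CPM in shNC. Of these 0 were called, beside 0.864% of all genes, and 1 was called higher without shNC replicate 1, beside 16.5%. The 8 neutrophil markers summed to 2.62, 2.12 and 2.26 CPM in shAtoh8, against 2.52, 0.975 and 0.682 CPM in shNC, with Ly6g at 0. Only 1 of the 8 had reads enough to be tested with all 6 libraries, and it did not pass. Without shNC replicate 1, 1 of the 8 passed as higher, beside 16.5% of all genes. The part of these cells in the iron gene values was not tested.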

How the data were processed

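RNA-seq of 6 mouse liver samples was used. The authors deposited 1 file of raw gene counts per sample and 1 table of FPKM values, scaled to transcript length and library size. The submitters' processing notes name FastQC, Trim Galore, HISAT2 2.10, HTSeq, Cufflinks 2.2.1 and the build GRCm38 (mm10), without roles. Lines that name no gene (2.48% to 5.66% of reads outside genes, 4.69% to 6.87% ambiguous) were left out.

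After filterByExpr and TMM scaling (factors 0.852 to 1.13), counts were tested on group alone with edgeR 4.0.16 (R 4.3.3), with Benjamini-Hochberg adjustment over all genes. CPM uses the scaled library sizes. A floor of 3 reads equals 0.079 to 0.094 CPM, for counting error only. No libraries agreed within sampling noise. Alternatives were other filters and scalings, DESeq2 1.42.0, limma 3.58.1 on log2(FPKM + 1) and log2(FPKM + 0.1), voom quality weights, a replicate block, a GC and length offset, and each library left out. The test was also run on counts simulated with the means, library sizes and dispersions of these data. The members and lists were chosen with earlier results of these data known. Named were Atoh8, the 10 members, up to 8 other iron genes with the smallest p, Hamp, and each marker list's sum and absent markers. Hairpin sites were searched in UTRs of GENCODE M21 transcripts. Flvcr1 and Flvcr2 were not analysed here, and 1 marker gene is not reported here.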

Additional observations from a re-analysis of the deposited data

How the results depend on the processing

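Genes called numbered 119 in the fit reported, 247 with no filter, 934 with DESeq2, 5088 with voom quality weights, 579 with the GC and length offset and 35 with a replicate block (244 with block and offset). Leaving out 1 library gave 0 to 4632, with 4632 without shNC replicate 1, 21 without shNC 3, 10 without shAtoh8 2 and 0 without each of the others. Settings added after seeing the data, both without shNC replicate 1, called 4260 with the offset and 3836 on log2(FPKM + 0.1). Shares of all tested genes called were 0.864% in the fit reported, 6.78% with DESeq2, 37.0% with voom quality weights and 4.21% with the offset. Without shNC 1 they were 32.6%, 30.0% with the offset and 31.2% on log2(FPKM + 0.1). Of the 10 iron genes, 0 passed in the fit reported and 2 with voom quality weights. With 1 library left out 0 to 2 of them passed (2 without shNC 1). Without shNC 1, 2 passed with the offset and 1 on FPKM. Of the other iron genes, 34 were tested in the fit reported, 35 with no filter and 32 on FPKM. Of these, 0 passed in the fit reported, 2 with no filter, 6 with DESeq2, 21 with voom quality weights and 7 with the offset. With block and offset 1 passed, and 0 to 19 with 1 library left out. Without shNC 1, 16 passed with the offset and 15 on FPKM. The counts with no filter and with block and offset stand beside 247 and 244 of all genes. The ratio difference of Tfrc to Fth1 ran from -1.45 to 0.01 with 1 library left out, positive only without shNC 2. That of Tfrc to Tfr2 ran from -1.59 to 0.21, at 0.02 without shNC 2 and 0.21 without shNC 3. That of Fth1 to Ftl1 ran from 0.15 to 0.29. The cause of these shifts was not tested. Signs turned, with the turned value not past the threshold, for Tfr2 (-0.78 to 0.03 with 1 library left out, 0.03 without shNC 1, 0.08 also on FPKM), Trf (-0.15 to 0.50, negative without shNC 2 at -0.15 and shNC 3 at -0.14), Slc40a1 (0.08 without shNC 1 with the offset), Slc39a14 (-0.27 to 0.14, 0.13 with voom weights, 0.14 without shNC 1, 0.10 also on FPKM) and Hfe (-0.35 to 0.01, positive without shNC 1). Slc11a2 ran from -0.11 to 0.28 with 1 library left out and turned to -0.21 on log2(FPKM + 1), -0.22 on log2(FPKM + 0.1), -0.10 with the offset, -0.12 with block and offset, -0.08 without shAtoh8 3, -0.06 without shNC 2, -0.11 without shNC 3 and -0.10 on FPKM without shNC 1. Same-numbered libraries correlated at 0.254, -0.082 and 0.29 in their deviations, and those of unlike number at -0.331 to 0.27. With 3 libraries per group and shNC replicate 1 apart, this cannot decide if the numbers pair them. With the replicate block Tfrc was at -0.87 (edgeR adjusted p = 0.518). Low counts limit the fold changes of Steap1 and Heph.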
